A study of Homo sapiens with 4 samples.

Results

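Proteasome genes were examined in human breast cancer cells with and without knockdown of hnRNPM, an RNA-binding protein that regulates alternative splicing. The genes were chosen by name alone, as every entry whose symbol is PSM followed by a letter from A to G and a number, with or without the ending IP. This gave 47 of the 20329 genes of the deposited expression table, and all 47 passed the filter on low values (a mean of at least 1 FPKM, fragments per kilobase scaled to the depth of the library). The 2 other human genes that the naming rule covers, PSMA8 and PSMB11, were not analysed here. PSMC3IP matches the name but is a meiotic recombination factor, so it was kept in the totals and described apart from the proteasome subunits.

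The proteasome is the ATP-dependent protease that degrades ubiquitin-tagged proteins. Its 20S core is a barrel of outer alpha rings and inner beta rings, in which PSMB5, PSMB6 and PSMB7 carry the proteolytic sites, and the 19S regulatory cap binds, unfolds and feeds in the substrate. Interferons induce the replacement subunits PSMB8, PSMB9 and PSMB10, which take the places of PSMB5, PSMB6 and PSMB7 to form the immunoproteasome, and the activator subunits PSME1 and PSME2, which together form the PA28 cap. These forms are known for producing peptides that major histocompatibility complex class I molecules present.

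The series asks how hnRNPM and ESRP1 act together on splicing during the epithelial-mesenchymal transition. It holds 4 libraries of polyadenylated RNA, 1 for each combination of 2 cell lines and 2 treatments. BM1 (also called 1833) and LM2 (4175) are metastatic derivatives of the triple-negative line MDA-MB-231, from bone and lung respectively. Cells of each line stably expressed, from a lentiviral vector, either a non-specific shRNA (control) or an shRNA against hnRNPM (knockdown), and all were grown in DMEM with 10% FBS. The labels do not say whether the stable lines were clones or pools, or how many shRNA sequences were used.

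HNRNPM itself stood at 171 FPKM in the control and 28.4 in the knockdown of BM1, and in LM2 at 132 and 20.3, which left 16.6% and 15.4% of the control level. The average difference was -2.59 (SE 0.25) on the log2(FPKM + 1) scale, with an adjusted p of 0.00318 in limma with Benjamini-Hochberg adjustment. The inferred depth was 31257000 and 22781000 fragments in the control and knockdown of BM1, and 41481000 and 27260000 in those of LM2. Mitochondrially encoded genes took 8.80% to 9.31% of summed FPKM in the controls and 11.8% to 12.8% in the knockdowns, and the part of this difference in the results below was not tested. VIM, CD44, KRT8, KRT18 and EGFR, which mark this line, were at 31.4 FPKM or above in every library. Of 7 markers of leukocytes, endothelium, bone and lung, CD14 (1.47 to 7.09 FPKM) and BGLAP (0.240 to 0.952 FPKM) had values, and the other 5 were not analysed here. ERBB2 was at 13.5 to 21.9 FPKM. In bulk RNA, fewer cells of a type and less RNA per cell cannot be told apart.

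Proteasome genes were well expressed in all 4 libraries. Per-library values are given in 1 order throughout: BM1 control, then BM1 knockdown, then LM2 control, then LM2 knockdown. The summed level of the 47 genes was 4569, 3745, 3924 and 3825 FPKM, that is 1.004%, 0.859%, 0.903% and 0.876% of all FPKM. The BM1 control was therefore the highest, and the other 3 lay close together. The highest member was PSMA7, a subunit of the alpha ring, at 333, 303, 346 and 295 FPKM. The lowest by mean was PSMG4, a chaperone of alpha ring assembly, at 15.3, 16.7, 11.3 and 14.5 FPKM. The median constitutive subunit stood at 100.1, 91.6, 84.9 and 80.2 FPKM, and the median assembly chaperone at 36.9, 24.8, 26.8 and 24.7 FPKM. Even the thinnest value, PSMB10 in the BM1 knockdown, rested on about 225 fragments per kilobase at the inferred depth. That is a counting error of 6.66% for 1 kilobase of transcript, as uncertain as the depth itself. Counting error covers the sampling of fragments only and says nothing of the spread between cultures.

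**Figure D1:**
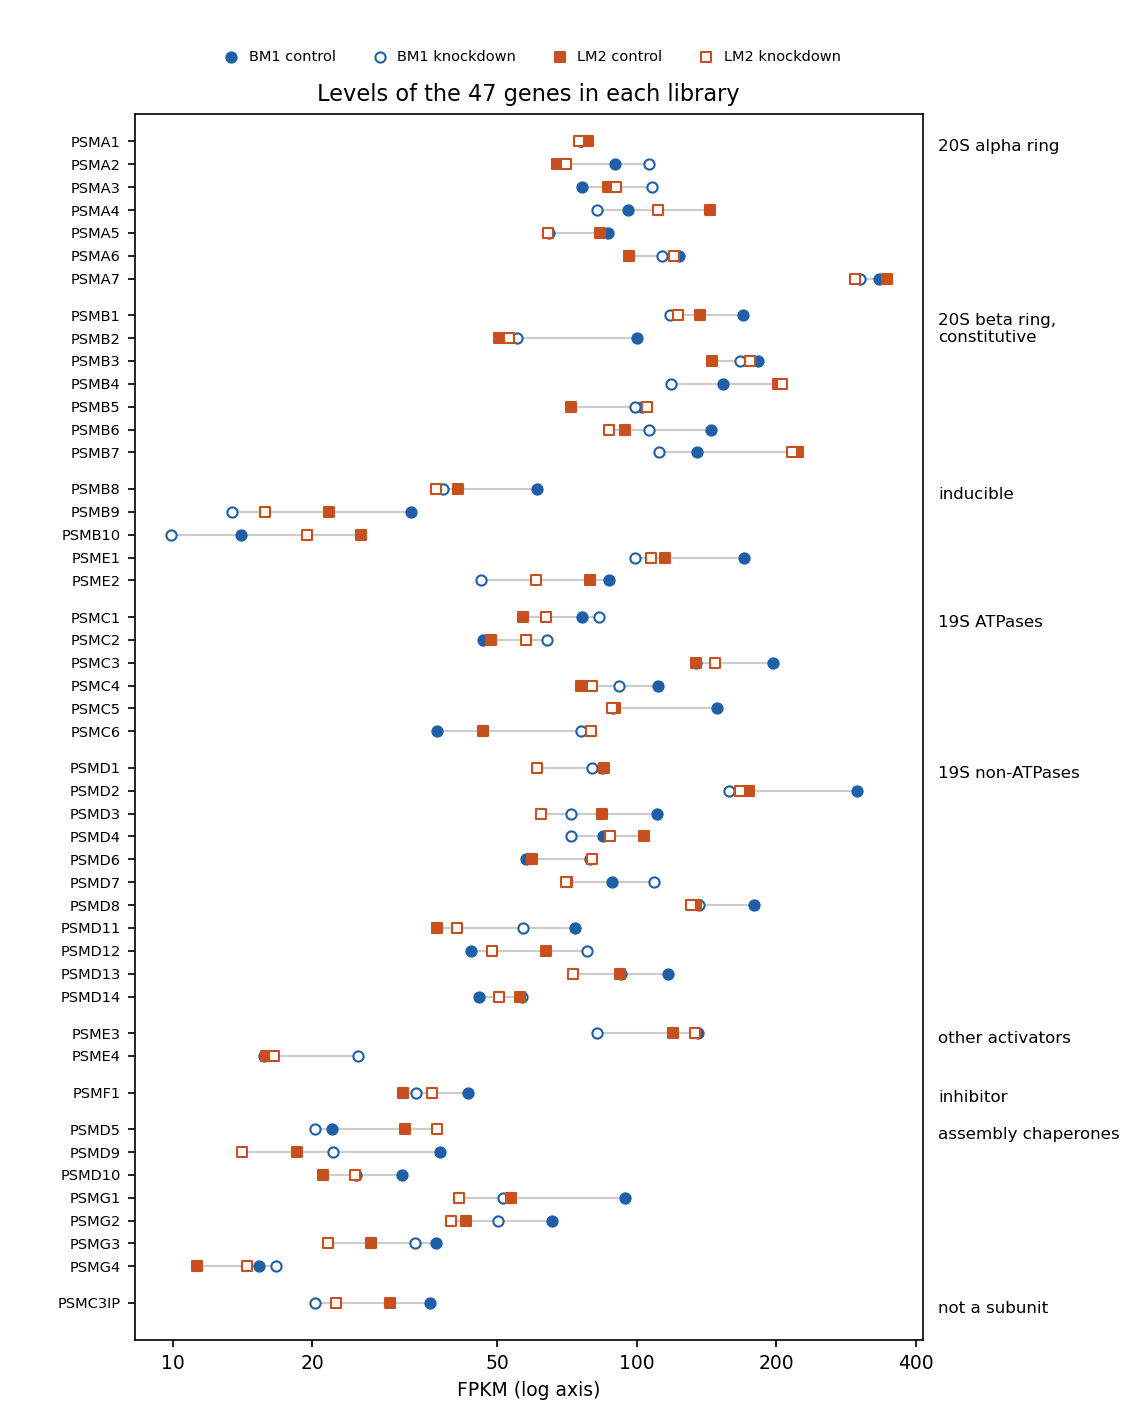
Level of each of the 47 genes (FPKM, log axis) by library, grouped by role. Circles are BM1 and squares LM2, and filled symbols are controls and open symbols knockdowns. The filled circle lies furthest to the right in 26 of the 47 genes, and PSMC6 has both open symbols to the right of both filled ones.

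In the comparison of knockdown with control over both lines, 0 of the 47 genes passed the threshold of an adjusted p of 0.05 in limma (4 at an unadjusted p under 0.05), while 5.47% of the 13928 genes tested did. The 4 genes were PSMB9, PSME2, PSMG1 and PSMC6, and 24.9% of all genes tested reached that unadjusted level. PSMC6 came nearest, with an adjusted p of 0.0793 in limma. With an intensity trend in limma its adjusted p was 0.0472, so that it alone passed. The 1 residual degree of freedom is how far the knockdown difference differed between the lines, so it holds line-specific response as well as technical spread. Limma also draws the spread of each gene towards that of all genes. The p-values therefore do not measure the spread between cultures, and the labels do not say whether the 4 libraries came from separate cultures.

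Within BM1, 35 of the 47 genes had a lower value in the knockdown than in the control (74.5%, against 49.7% of all genes tested). Within LM2 it was 27 of 47 (57.4%, against 53.5%). Of the 5164 genes tested that were at least as abundant as the lowest member, 54.9% were lower in BM1 and 49.1% in LM2. A total of 23 genes were lower in both lines, 8 were higher in both and 16 went opposite ways (48.9%, 17.0% and 34.0%, against 36.2%, 33.0% and 30.9% of all genes tested). Most differences were small. Past 2-fold lay 2 of 47 genes in BM1, PSMB9 and PSMC6, where 16.3% of all genes tested did, and 0 of 47 in LM2, where 8.06% did. With a trend on GC content and length removed, 3 genes were past 2-fold in BM1: PSMB9, PSMA5 and PSMB2, with PSMC6 no longer among them. Past 1.5-fold lay 15 of 47 in BM1 (12 lower and 3 higher, background 37.8%) and 1 of 47, PSMC6, in LM2 (background 24.5%). These counts describe the list, and they were not tested against other genes.

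**Figure D2:**
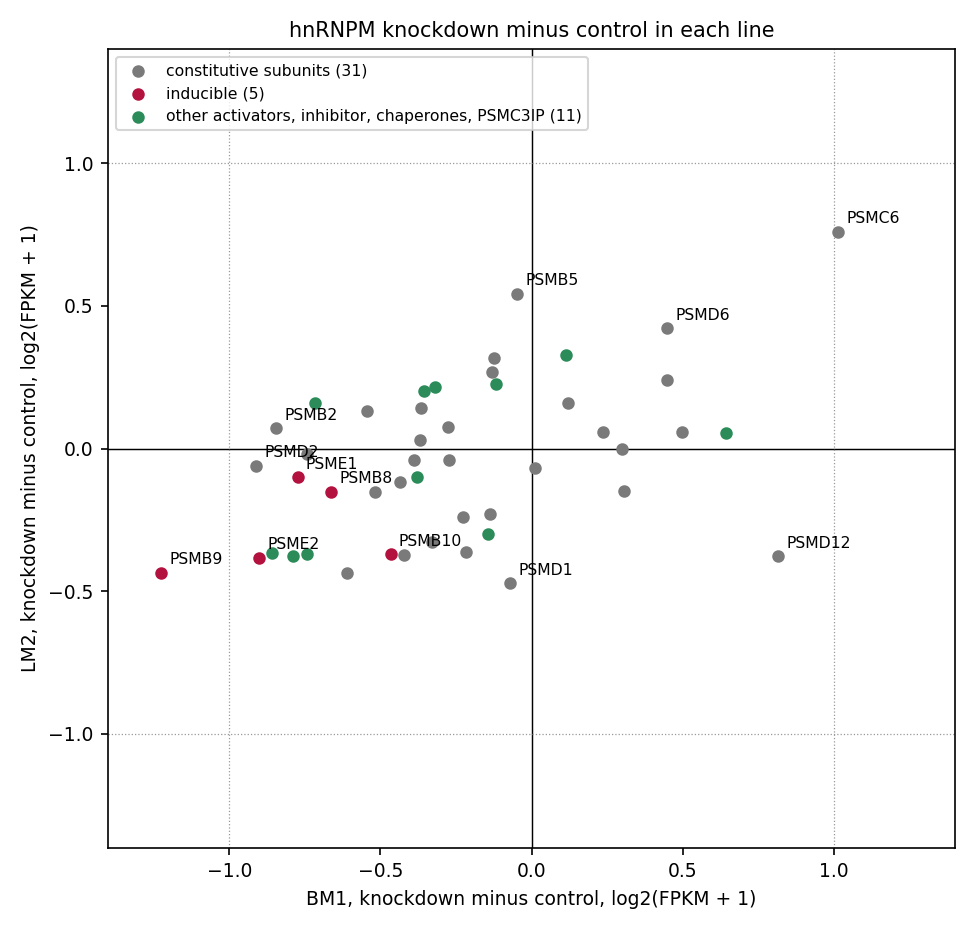
Difference between knockdown and control for each gene, as log2(FPKM + 1), in BM1 (horizontal axis) and LM2 (vertical axis), 1 point per gene. Dotted lines mark 2-fold. The 5 inducible genes (red) lie at the lower left, PSMC6 lies in the upper right, and PSMD12 lies furthest towards the lower right.

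The 5 interferon-inducible genes were lower with knockdown in both lines, and their median difference was further from 0 than that of the constitutive subunits. The median of the 5 was -0.77 in BM1 and -0.37 in LM2, and that of the 31 constitutive subunits was -0.22 and -0.02. Over all genes tested the median was 0.0047 in BM1 and -0.04 in LM2, and 36.2% of genes were lower in both lines. Under quantile normalization the constitutive median in BM1 was -0.07, with 16 of 31 lower in place of 21, and the inducible median was -0.59. Over both lines the medians were -0.44 and -0.16, and none of the 5 passed the limma test. With a trend on GC content and length removed, the medians of the 5 were nearer to 0 (-0.56 in BM1, -0.17 in LM2, -0.28 over both), and PSME1 in LM2 was then at 0.0056.

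PSMB8 replaces PSMB5 and lies at chr6:32808494-32812480 (GRCh37, minus strand) in the major histocompatibility complex region. Its levels were 61.0, 38.2, 41.2 and 37.0 FPKM, highest in the BM1 control, with the other 3 close together. PSMB9 replaces PSMB6, lies beside it at chr6:32811913-32827362 (plus strand), and stood at 32.7, 13.4, 21.7 and 15.8 FPKM. Both knockdown libraries were below both controls for PSMB9, and the average difference was -0.83 (SE 0.28; limma adjusted p 0.121). The gene model of PSMB9 overlaps PSMB8 and TAP1 on the opposite strand and PSMB8-AS1 on the same strand. No source used here says whether counting used the strand, so reads of PSMB9, PSMB8, PSMB8-AS1 and TAP1 in the overlaps may be shared among them. The same limit holds for other members, as 28 of the 47 overlap another listed gene, 8 of them on the same strand. Among these are PSMB10 (CTC-479C5.12, same strand), PSMD2 (EIF2B5, same strand), PSME1 (EMC9, opposite strand) and PSME2 (RNF31, opposite strand).

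PSMB10 replaces PSMB7 and lies at chr16:67968405-67970990 (minus strand). Its levels were 14.1, 9.90, 25.4 and 19.4 FPKM, so both LM2 libraries were above both BM1 libraries and each knockdown was below its own control. PSME1 (chr14:24605367-24608176, plus strand) stood at 171, 99.3, 115 and 108 FPKM, with the BM1 control far above the other 3. Its partner PSME2 (chr14:24612571-24616779, minus strand) stood at 87.2, 46.2, 79.4 and 60.6 FPKM, with both knockdowns below both controls. The average differences were -0.42 (SE 0.25) for PSMB10, -0.44 (SE 0.28) for PSME1 and -0.64 (SE 0.27) for PSME2, with limma adjusted p of 0.339, 0.362 and 0.179. With the GC and length trend removed they were -0.18, -0.28 and -0.50. A processed copy, PSME2P2, was listed at 2.13 to 4.46 FPKM, so the values of PSME2 are slightly uncertain.

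FPKM is per length, so the inducible subunit can be set against the constitutive subunit it replaces within each library. PSMB8 stood at 0.593, 0.384, 0.572 and 0.351 of PSMB5. PSMB9 stood at 0.226, 0.126, 0.229 and 0.181 of PSMB6. PSMB10 stood at 0.104, 0.0886, 0.114 and 0.0900 of PSMB7. For all 3 pairs the control ratios of the lines were close and both knockdown ratios were below both control ratios. In LM2 the lower ratio of PSMB8 to PSMB5 came mostly with a higher PSMB5 (0.54), as PSMB8 itself differed by -0.15. Such a ratio does not depend on the scaling of a library, and with the GC and length trend removed all 3 log2 ratios were still lower in both lines (-0.57 and -0.68, -0.97 and -0.41, -0.05 and -0.20 in BM1 and LM2). The log2 ratio differed by -0.67, -0.59 and -0.29 between knockdowns and controls. The exact two-sided permutation p was 0.333 for each of the 3 (0.333 adjusted over them), which is the smallest that 2 against 2 libraries allow.

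**Figure D3:**
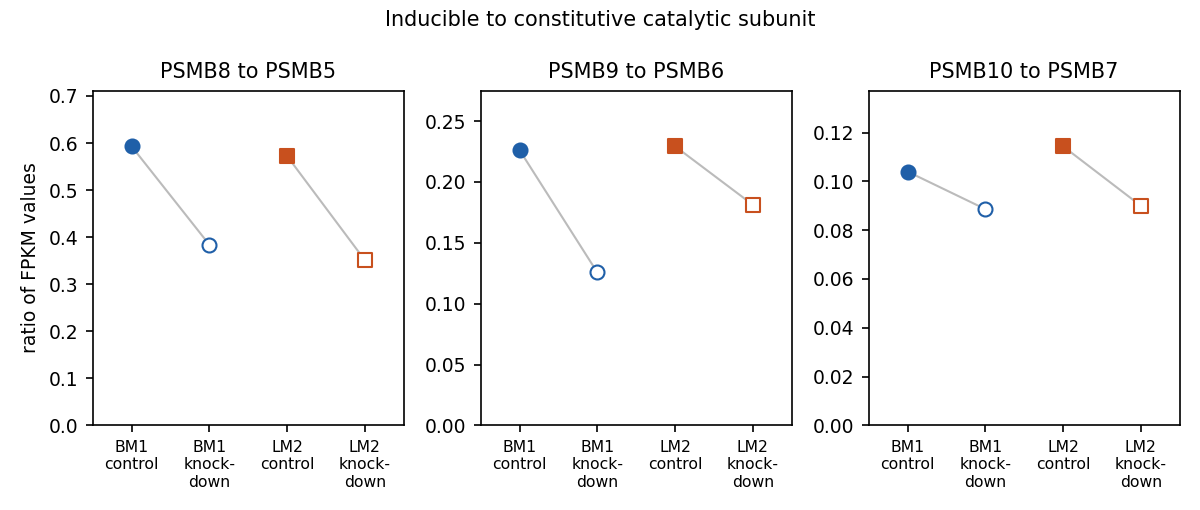
Ratio of the FPKM of an inducible catalytic subunit to that of the constitutive subunit it replaces, in each of the 4 libraries, 1 point per library and an axis from 0 in each panel. Grey lines join control and knockdown of the same line, and in the 3 panels both open symbols lie below both filled ones.

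The constitutive partners behaved less uniformly. PSMB5, of chymotrypsin-like activity, stood at 103, 99.4, 72.1 and 105 FPKM, lowest in the LM2 control. PSMB6, of caspase-like activity, stood at 144, 106, 94.5 and 87.0 FPKM, highest in the BM1 control. PSMB7, of trypsin-like activity, stood at 135, 112, 222 and 216 FPKM, so both LM2 libraries were above both BM1 libraries. Their average knockdown differences were 0.25 (SE 0.27), -0.28 (SE 0.26) and -0.16 (SE 0.25).

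The promoters of the inducible genes are shown because interferon regulatory factors are known to act there. RefSeq windows of 300 bases, from 250 before to 50 after a start site (GRCh38.p14), were found for 41 of the 47 genes. They were searched on both strands for the letters AANNGAAA, the core that interferon regulatory factors bind. It was in the windows of 4 of the 5 inducible genes, in 7 of 26 constitutive subunits and in 2 of the other 10 genes, and 22.9% of 34943 windows of all genes held it. These are unlike units: a gene counted if any of its windows matched (51 windows for the 41 genes), while the background counts single windows. The stretch around each match follows, 5′ to 3′ on the gene's strand, with the matching letters of either strand in capitals and neighbouring matches run together.
PSMB8 (chr6:32844013-32844076, minus strand): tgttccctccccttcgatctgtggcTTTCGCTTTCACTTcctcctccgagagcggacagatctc
PSMB10 (chr16:67936837-67936951, minus strand): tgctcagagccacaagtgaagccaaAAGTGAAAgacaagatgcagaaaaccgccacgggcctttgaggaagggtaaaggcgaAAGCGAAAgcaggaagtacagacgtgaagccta
PSME1 (chr14:24136174-24136237, plus strand): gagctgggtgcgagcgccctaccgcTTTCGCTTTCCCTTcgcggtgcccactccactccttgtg
PSME2 (chr14:24146604-24146661, minus strand): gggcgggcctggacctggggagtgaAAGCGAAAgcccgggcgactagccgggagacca

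PSMB9 faces TAP1, the gene of a peptide transporter subunit, across a shared promoter region with start sites 488 bases apart. The PSMB9 window (chr6:32853942-32854241, GRCh38.p14, plus strand) held no such core, while that of TAP1, with which it shares 13 bases, held 2 overlapping ones, at -134 to -121 from the start site of TAP1. Both are shown, the first with its match to TGACNNNGC in capitals, an antioxidant response type element of the kind that NFE2L1 and NFE2L2 bind.
PSMB9 (chr6:32853942-32854241, plus strand): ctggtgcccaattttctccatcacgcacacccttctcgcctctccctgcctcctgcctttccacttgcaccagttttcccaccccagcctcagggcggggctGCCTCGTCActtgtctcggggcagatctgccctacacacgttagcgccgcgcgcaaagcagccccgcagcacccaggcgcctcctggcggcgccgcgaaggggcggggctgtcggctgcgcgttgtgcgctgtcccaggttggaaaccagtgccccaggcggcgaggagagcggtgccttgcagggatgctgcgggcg
TAP1 (chr6:32853800-32853863, minus strand): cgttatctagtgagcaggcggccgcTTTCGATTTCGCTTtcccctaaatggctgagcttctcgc
TAP1 stood at 30.7, 25.9, 17.3 and 30.2 FPKM, lowest in the LM2 control. TAP1 and PSMB9 on the other side of the region were both highest in the BM1 control. The knockdown differences in BM1 and LM2 were -0.24 and 0.77 for TAP1, and -1.23 and -0.44 for PSMB9. The letters TGACNNNGC were in the windows of 3 of 5 inducible genes, 7 of 26 constitutive subunits and 5 of the other 10, against 13.3% of all windows. Here too genes were counted by any of their windows, and the background by single windows. A match of letters is a description and does not show that a factor bound there.

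The genes around the interferon response and peptide presentation did not share 1 direction. None of the 10 on that list passed the limma test for knockdown (0 of 10, background 5.47%). With knockdown 5 of the 10 were lower in BM1 and 3 in LM2, against 49.7% and 53.5% of all genes tested. The median differences of the 10 were 0.06 and 0.20. IRF1, a transcription factor for the immunoproteasome genes, was at 15.1, 8.82, 18.8 and 14.5 FPKM, and IRF9, a factor of the same family, at 12.2, 5.90, 7.01 and 5.01 FPKM. Each was lower in the knockdown of its line. TAP2, the other half-transporter, was at 43.2, 25.1, 34.5 and 20.3 FPKM, with both knockdowns below both controls. B2M, the class I light chain, was at 340, 419, 580 and 819 FPKM, higher in each knockdown than in its control and higher in LM2. TAPBP (0.69 and 0.51), NLRC5 (0.16 and 0.18) and ERAP1 (0.28 and 0.09) were also higher with knockdown in BM1 and LM2. IRF1, IRF9 and TAP2 were the 3 lower in LM2, and TAP1 and ERAP2 were lower in BM1 only.

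The beta ring subunits PSMB1 to PSMB7 were lower with knockdown in 7 of 7 cases in BM1 and 3 of 7 in LM2, with medians of -0.37 and 0.03. PSMB2 had the largest average difference of the ring, with 100.1, 55.3, 50.4 and 53.1 FPKM: the BM1 control stood alone and the other 3 agreed closely. The average was -0.39 (SE 0.29), and without the BM1 control, in a fit with no term for line, it was 0.10. The alpha ring, which gates the barrel, was lower in 4 of 7 cases in each line, with medians of -0.12 and -0.07. PSMA5 was the alpha subunit furthest from 0, at 86.8, 64.6, 83.5 and 64.2 FPKM, with the knockdowns of both lines at one level and the controls at another. Its average difference was -0.40 (SE 0.25; limma adjusted p 0.363), and with the GC and length trend removed it was -0.78 (limma adjusted p 0.145), with -1.07 in BM1.

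Among the 6 ATPases of the 19S cap, which unfold substrates, 3 were lower with knockdown in BM1 and 1 in LM2. The medians were -0.08 and 0.15, and 3 of the 6 were higher in both lines. PSMC6 had the largest difference of the 6 in each line. It lies at chr14:53173890-53195305 (plus strand) and was at 37.0, 75.8, 46.6 and 79.7 FPKM, lowest of the 6 in both controls and close to the rest in both knockdowns. Both knockdown libraries were above both controls, by 1.01 in BM1 and 0.76 in LM2, and the average was 0.89 (SE 0.25; limma adjusted p 0.0793). No other listed gene overlaps it. Its longest transcript has a GC content of 38.8%, and with the GC and length trend removed the differences were 0.52 and 0.68 (average 0.60, limma adjusted p 0.164). PSMC2 also had both knockdowns above both controls, at 46.6, 63.9, 48.6 and 57.6 FPKM. PSMC3 and PSMC5, partner ATPases of the same ring, were lower in the BM1 knockdown than in the control (-0.55 and -0.74) and near level in LM2 (0.13 and -0.02). The ATPase levels lay closer together in the knockdowns. The SD of log2 FPKM over the 6 genes was 0.95 in the control and 0.36 in the knockdown of BM1. In LM2 it was 0.59 and 0.47. Over all 31 constitutive subunits it was 0.76 and 0.52 in BM1 and 0.73 and 0.69 in LM2, so this was not particular to the ATPases. The constitutive beta ring went the other way in BM1 (0.34 and 0.48). PSMC1 is uncertain, because the processed copy PSMC1P1 was listed at 26.0 to 32.0 FPKM and could have drawn its reads.

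The 11 other subunits of the 19S cap bind ubiquitin chains, hold the lid together or remove ubiquitin. In the knockdowns 7 of 11 were lower in BM1 and 9 of 11 in LM2, with medians of -0.23 and -0.15. PSMD3, a lid scaffold subunit, was at 110.7, 72.2, 84.4 and 62.1 FPKM, below its control in each line, with an average of -0.52 (SE 0.25; limma adjusted p 0.241). PSMD2, a scaffold that docks ubiquitin receptors, was at 299, 158, 175 and 167 FPKM, and the BM1 control again stood alone. PSMD12, also a lid scaffold, was the 1 member with opposite differences beyond 0.3 in the lines, at 43.9, 78.1, 63.7 and 48.8 FPKM. It was higher by 0.82 in the BM1 knockdown and lower in LM2 (-0.38), and with the GC and length trend removed the values were 0.16 and -0.48. PSMD14, the deubiquitinase of the lid, was at 45.7, 56.7, 56.0 and 50.4 FPKM, with differences of 0.31 in BM1 and -0.15 in LM2. Its GC content is 32.0%, and with the GC and length trend removed the differences were -0.74 and -0.35 (average -0.55, limma adjusted p 0.210).

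Among the 7 assembly chaperones 6 were lower with knockdown in BM1 and 4 in LM2. PSMG1, which pairs with PSMG2 to build the alpha ring, was at 94.2, 51.5, 53.6 and 41.4 FPKM, with an average of -0.61 (SE 0.26; limma adjusted p 0.194). PSMG2 was at 65.6, 50.2, 42.8 and 39.8 FPKM. For both partners the BM1 control was highest and the LM2 knockdown lowest. PSMD9, a chaperone of the ATPase ring, was at 37.7, 22.1, 18.5 and 14.1 FPKM. The nuclear activator PSME3 was at 135.5, 82.1, 120 and 134 FPKM, lowest in the BM1 knockdown, and the activator PSME4 at 15.7, 25.1, 15.8 and 16.5 FPKM, highest there. The inhibitor PSMF1 was at 43.2, 33.5, 31.4 and 36.2 FPKM, with differences of -0.36 and 0.20 in BM1 and LM2. PSMC3IP was at 35.8, 20.3, 29.5 and 22.5 FPKM, with both knockdowns below both controls and an average of -0.58 (SE 0.26; limma adjusted p 0.207).

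Between the lines, 0 of the 47 genes passed the threshold in limma over both treatments (6 at an unadjusted p under 0.05), while 4.35% of all genes tested did, and 22.4% reached that unadjusted level. The 6 were PSMB10, PSMB7, PSMB4 and PSMD5, higher in LM2, and PSMD11 and PSMD9, lower in LM2. PSMB10 differed by 0.86 (SE 0.25; limma adjusted p 0.0921), PSMB7 by 0.83 (SE 0.25; 0.102) and PSMD9 by -0.80 (SE 0.26; 0.115). PSMB7 and PSMB10, which take the same place in the ring, were thus both higher in LM2, with all 4 LM2 values above the BM1 values of the same gene. PSMD11, a lid scaffold subunit, was at 73.6, 56.9, 37.0 and 41.0 FPKM, with both LM2 libraries below both BM1 libraries. PSMA4 of the alpha ring was at 95.8, 82.2, 144 and 111 FPKM, with both LM2 libraries above. Past 2-fold lay 0 of 47 genes in the controls (background 12.2%) and 0 of 47 in the knockdowns (background 9.04%), and past 1.5-fold 10 of 47 in each (background 34% and 27.7%).

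**Figure D4:**
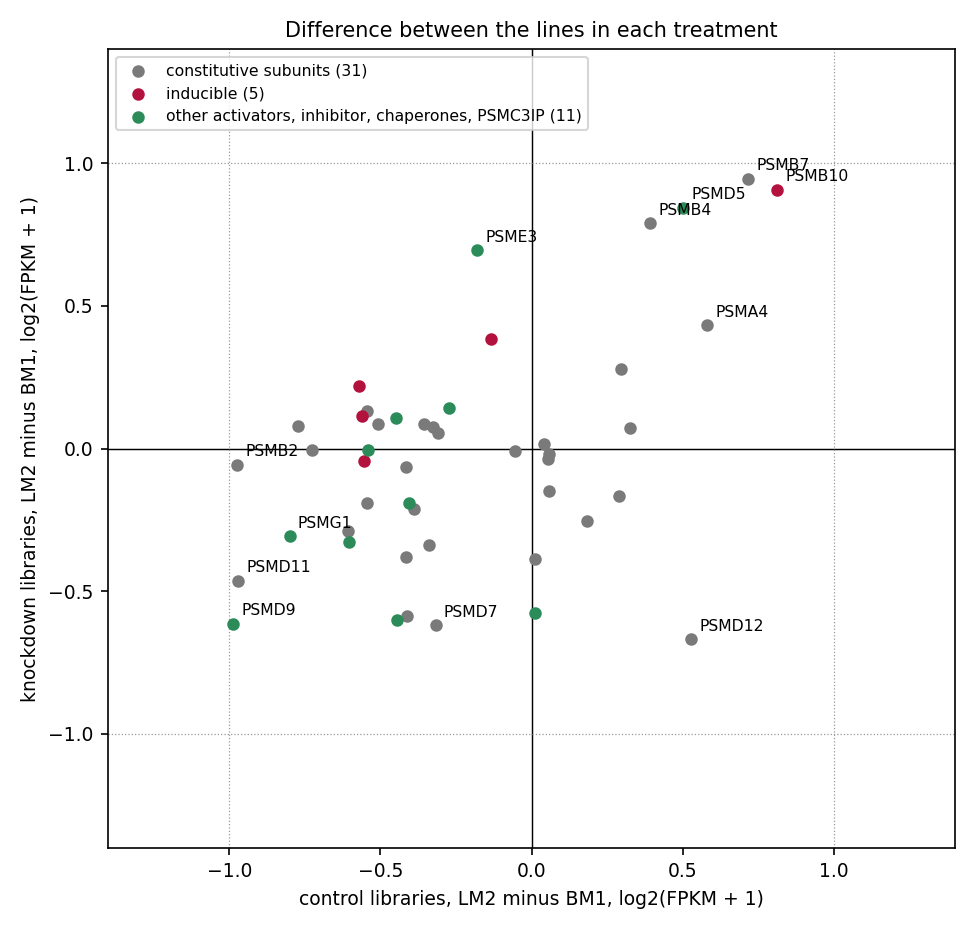
Difference between LM2 and BM1 for each gene, as log2(FPKM + 1), in the control libraries (horizontal axis) and in the knockdown libraries (vertical axis), 1 point per gene. Dotted lines mark 2-fold. PSMB7, PSMB10, PSMB4 and PSMD5 lie at the upper right, PSMD9 and PSMD11 at the lower left, and 4 of the 5 inducible genes (red) lie left of 0 in the controls.

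The median difference between the lines was further from 0 in the controls than in the knockdowns for both groups of subunits. Past 1.5-fold lay 6 of 31 constitutive subunits in the controls and 5 in the knockdowns (background 34% and 27.7%). Of the 5 inducible genes it was 1 in each. The median LM2 minus BM1 difference of the constitutive subunits was -0.32 in the controls and -0.04 in the knockdowns, and that of the inducible genes was -0.55 and 0.22. Under quantile normalization the medians in the controls were -0.17 and -0.41. The control comparison and the knockdown comparison within BM1 share the BM1 control library, in which 26 of the 47 genes had their highest level (55.3%). Of all genes tested 29.7% were highest there, and of the 5164 genes at least as abundant as the lowest member 34.5%. By role it was 14 of 31 constitutive subunits, 4 of 5 inducible genes and 5 of 7 assembly chaperones. Without the BM1 control, the median knockdown difference over the remaining libraries, with no term for line, was -0.0079 for the constitutive subunits. The median line difference of the inducible genes, with no term for treatment, was then 0.44.

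Transcript GC content moved with the knockdown differences. In BM1 the 35 genes with lower values had a median GC content of 49.9% and the 12 with higher values 39.8%. Over all genes tested it was 52.3% and 43.8%. In LM2 it was 49.9% and 45.5% for the proteasome genes, and 50.2% and 46.3% for all genes tested. With the GC and length trend removed, 34 of 47 genes in BM1 and 22 of 47 in LM2 were lower with knockdown, of which 30 and 20 were lower without the removal too. In BM1 5 genes turned higher and 4 turned lower. Of the inducible genes 5 of 5 and 4 of 5 were lower. The part of GC content in the differences was not tested further.

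**Figure D5:**
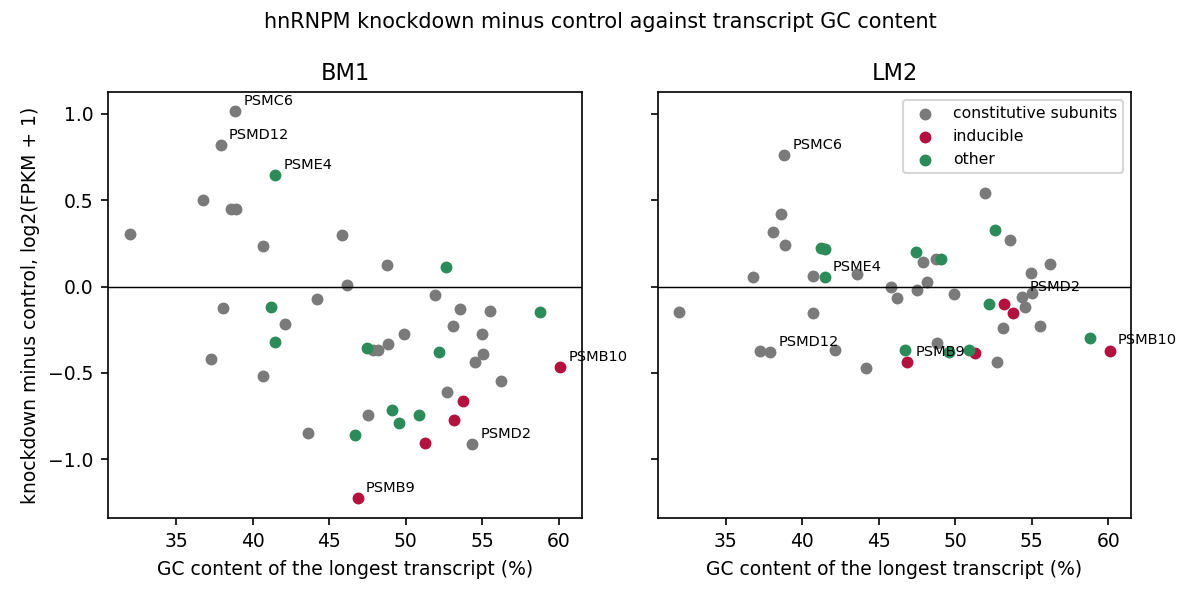
Difference between knockdown and control, as log2(FPKM + 1), against the GC content of the longest transcript (percent) in BM1 (left) and LM2 (right), 1 point per gene. In BM1 the genes with higher values lie mostly at low GC content, PSMC6 and PSMD12 among them, while PSMB9 at 46.9% has the lowest value.

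Genes that build, regulate or feed the proteasome were taken from lists of 42 names, of which 41 had values. For knockdown 2 of 41 passed the limma test (background 5.47%) and for the lines 2 of 41 (background 4.35%). Both of the first are small MAF proteins, the DNA-binding partners of NFE2L1 and NFE2L2, and they went opposite ways. MAFF fell, with 8.35, 3.49, 18.4 and 5.48 FPKM (average -1.32, SE 0.27; limma adjusted p 0.0296). MAFK rose, with 6.16, 13.8, 4.57 and 11.4 FPKM (average 1.10, SE 0.25; limma adjusted p 0.0423). With the GC and length trend removed the adjusted p was 0.0834 and 0.0559. NFE2L1 itself, the factor known to raise proteasome genes when the proteasome is blocked, was at 39.7, 44.8, 38.0 and 28.9 FPKM, with differences of 0.17 and -0.38 in BM1 and LM2.

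Among the 10 further subunits and maturation factors, TXNL1, a thioredoxin bound to the 19S cap, was the 1 that passed the test between lines, at 19.5, 28.9, 4.57 and 6.62 FPKM (average -1.93, SE 0.25; limma adjusted p 0.00513). USP14, a deubiquitinase of the cap, was also lower in LM2, at 104.5, 102.7, 55.1 and 41.5 FPKM, but did not pass (limma adjusted p 0.0514). KIAA0368, a proteasome-binding scaffold, was at 25.025, 46.6, 57.3 and 73.4 FPKM, higher in LM2 than in BM1 in each treatment, and did not pass either (0.90; limma adjusted p 0.0937). POMP, the chaperone that matures the core, was at 70.5, 88.1, 74.4 and 99.7 FPKM, above its control in each knockdown. The ubiquilin UBQLN2, which carries ubiquitinated proteins to the proteasome, was higher in LM2, at 5.18, 6.34, 13.1 and 13.9 FPKM (average 1.10, SE 0.25; limma adjusted p 0.0478, and 0.0677 with the GC and length trend removed). The 6 genes of ubiquitin and its activation included 0 that passed in either comparison, and UBB, a polyubiquitin gene, was at 1009, 606, 765 and 588 FPKM.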

How the data were processed

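The authors deposited 1 table of FPKM values with 1 column per library. STAR 2.5.3a, Cuffdiff 2.2.1 and GRCh37 are named, without role or order, in the submitters' processing notes. The sources used here give neither the annotation release nor the use of strand in counting. Of 20369 entries, 40 with 3 repeated identifiers were left out. Depth was inferred from the step of FPKM times length in low genes (35.9% to 44.0% of values on whole steps within 0.02). A finer step of 2 or 4 times also matched, so absolute depth is uncertain.

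The 13928 genes averaging 1 FPKM or more were compared as log2(FPKM + 1), which understates the difference of low genes, with limma 3.58.1 in R 4.3.3, with terms for line and treatment. The libraries of 1 line pair by origin (r of their deviations 0.545). P-values were two-sided and adjusted over all 13928 genes. Comparisons of 1 library with 1 have no replicate check, and a 2-fold rule was used. Values in every library were given for the inducible genes and their counterparts, genes called or past 2-fold, those furthest from 0 in each role and the highest and lowest. Further genes, such as PSMD2, PSMD12, PSMD14, PSMC3, PSMC5, PSMG2 and PSME3, were chosen after their values were seen, and USP14, KIAA0368, POMP, UBB and the interferon genes were picked from their lists likewise. The members and lists were chosen with earlier results of these data known. GC content and length come from the longest transcript in GENCODE 29, matched by identifier (47 of 47 members), and the trend was removed by loess. The limma step was tested on simulated data. For 1 gene of the interferon list, and 1 promoter motif, values are not reported here.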

Additional observations from a re-analysis of the deposited data

Results flagged for a closer look

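PSMD12, a lid scaffold subunit of the 19S cap, had differences of opposite sign in the 2 lines and in the 2 treatments. Its knockdown minus control difference on the log2(FPKM + 1) scale was 0.82 in BM1 and -0.38 in LM2. Its LM2 minus BM1 difference was 0.53 in the controls and -0.67 in the knockdowns. These are the same 4 libraries read in 2 ways, with 1 library in each group, and the difference between lines was not tested. With the GC and length trend removed, the knockdown differences were 0.16 and -0.48.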

How the results depend on the processing

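In the alternative runs on all 4 libraries no proteasome gene was called, except that limma with an intensity trend called 1, PSMC6, for knockdown. In some of these runs no gene of the whole table was called. For knockdown 0 genes were called with no filter, quantile normalization or no replicate block, and for the lines 0 with no filter. Those runs therefore say nothing particular to the proteasome genes. Over the alternatives the lowest adjusted p of PSMC6 was 0.0472. No fit gave each line its own knockdown term, since 4 libraries leave no degree of freedom for it. The line enters as the replicate block. With no replicate block, 0 of 47 genes were called in either comparison (limma; 2 and 2 at an unadjusted p under 0.05), and the lowest adjusted p were 0.391 and 0.492. HNRNPM then had the same difference, -2.59, with an adjusted p of 0.213. It also missed the threshold with pseudocount 0.1 (-2.64, adjusted p 0.0550), no filter (-2.59, 0.22), quantile normalization (-2.54, 0.0596) and each library left out in turn (-2.83 to -2.36). MAFF, MAFK and UBQLN2 missed it in most of these settings too, and TXNL1 with no filter, no replicate block and libraries left out. Past 1.5-fold in place of 2-fold lay 15, 1, 10 and 10 genes in the comparisons within BM1, within LM2, between controls and between knockdowns. With median-ratio size factors 1 gene was past 2-fold in BM1, 1 between controls and 1 between knockdowns, and with pseudocount 0.1 or 0.5 or the GC and length trend removed 1 between controls. That removal gave 3 in BM1 in place of 2. The cause was not tested. The fits with a library left out had no term for the other factor. A knockdown difference there also holds part of the line difference, and a line difference part of the knockdown difference. With each library left out in turn, the median knockdown difference ranged from -0.14 to -0.0079 for constitutive subunits and from -0.83 to -0.43 for inducible genes, and the median line difference of the inducible genes from -0.61 to 0.44. The same omissions changed the sign of the knockdown difference of PSMB10 (-0.87 to 0.035), PSMB2 (-0.87 to 0.10), PSMB5 (-0.0061 to 0.50), PSMB6 (-0.58 to 0.027), PSMB7 (-0.63 to 0.32) and PSMF1 (-0.30 to 0.15). Within the lines, PSMB10 (-0.47 in BM1 and -0.37 in LM2), PSMB6 and PSMB7 were lower with knockdown in both, while PSMB2, PSMB5 and PSMF1 went opposite ways. The omissions changed the sign of the line difference of PSMC3IP (-0.46 to 0.33), PSME4 (-0.60 to 0.039) and PSMF1 (-0.35 to 0.0086). With the GC and length trend removed, a setting chosen after seeing the data, the line difference of PSMC3IP was 0.024.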
